A study of Mus musculus with 6 samples.

Results

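The core circadian clock of mouse ear epidermis was followed through 10 genes, taken by symbol from the deposited table: the activators Arntl, Clock and Npas2, the repressors Per1, Per2, Per3, Cry1 and Cry2, and the nuclear receptors Nr1d1 and Nr1d2. All 10 were among the 49671 genes listed and among the 15413 with enough reads to be tested. The RNA came from basal keratinocytes of the interfollicular epidermis, gated as living, integrin alpha 6-positive and CD34-negative cells, of CD1 mice, an outbred stock, and the groups were intact males, females and males that had been castrated. The labels give no transgene or agent, and the only treatment named is castration. Each group had 2 libraries, each made from polyA RNA of 100000 sorted cells pooled from 2 mice of the same litter. The sources used here do not give age, time since castration, stage of the oestrous cycle or hour of collection. The cells were released from the ear by trypsin overnight in the cold before sorting, so the RNA was taken after that step. Since a group is 2 pools, a p-value rests on how far pools differ, and a difference in litter or collection hour cannot be told apart from sex or castration.

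The clock is a loop of transcription and feedback that runs in nearly every cell. BMAL1, the product of Arntl, pairs with CLOCK or its paralogue NPAS2 and switches on genes through E-box sequences, among them the Per and Cry genes. PER and CRY proteins build up and block the BMAL1 complexes, so their own transcripts fall again. In a second loop the receptors REV-ERB alpha and beta, encoded by Nr1d1 and Nr1d2, repress Arntl while the ROR receptors activate it. Over a day Arntl therefore runs nearly opposite to Nr1d1 and the Per genes in most tissues, and Cry1 lags behind them. In skin the clock is known to run in keratinocytes and to time DNA synthesis and differentiation. Because the activator and repressor transcripts peak at different hours, both sides of the loop were set against each other in every library.

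Promoter sequences are shown for Per1, Cry1, Cry2 and Per3, because the first 3 encode repressors and carry E-box-type letters, the kind that BMAL1 complexes bind, and Per3 carries a different clock motif. Each is the 250 bases before the first transcription start listed by RefSeq (GRCm38.p6), printed 5′ to 3′ on the gene's strand, and a RefSeq promoter was found for 9 of the 10 genes, Per2 being the gene without one. Per1 is at chr11:69098699-69098948 on the plus strand, Cry1 at chr10:85185055-85185304, Cry2 at chr2:92434070-92434319 and Per3 at chr4:151044666-151044915, all of these 3 on the minus strand. Capitals mark the E-box CACGTG, its variant CACGTT, read on the opposite strand as AACGTG, and the D-box TTATGNAA, the motif bound by the DBP, TEF, HLF and NFIL3 proteins.
Per1: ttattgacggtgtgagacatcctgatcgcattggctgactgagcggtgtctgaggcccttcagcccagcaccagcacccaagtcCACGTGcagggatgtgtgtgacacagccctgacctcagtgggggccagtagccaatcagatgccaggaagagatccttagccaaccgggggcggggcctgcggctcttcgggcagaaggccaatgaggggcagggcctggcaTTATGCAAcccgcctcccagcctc
Cry1: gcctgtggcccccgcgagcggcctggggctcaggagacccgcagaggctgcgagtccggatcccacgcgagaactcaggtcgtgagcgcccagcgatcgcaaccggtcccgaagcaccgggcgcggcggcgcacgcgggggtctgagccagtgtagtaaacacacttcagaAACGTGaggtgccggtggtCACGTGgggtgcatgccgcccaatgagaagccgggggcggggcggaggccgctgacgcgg
Cry2: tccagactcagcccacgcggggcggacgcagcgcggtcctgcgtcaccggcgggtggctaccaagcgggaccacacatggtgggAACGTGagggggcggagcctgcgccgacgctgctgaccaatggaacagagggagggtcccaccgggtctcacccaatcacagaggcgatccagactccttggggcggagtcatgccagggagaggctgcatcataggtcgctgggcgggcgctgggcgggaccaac
Per3: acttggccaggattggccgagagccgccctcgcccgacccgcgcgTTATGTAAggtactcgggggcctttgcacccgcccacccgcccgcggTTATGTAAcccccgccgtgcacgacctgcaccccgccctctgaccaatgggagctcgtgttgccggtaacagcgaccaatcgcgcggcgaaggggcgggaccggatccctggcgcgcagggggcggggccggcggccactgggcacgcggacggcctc

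Both strands were searched, and no match of one of these 3 motifs overlapped a match of another. Per1 had CACGTG starting 166 bases before the start and a D-box 24 bases before it. Cry1 had CACGTG at 60 bases and the CACGTT variant at 79 bases, and Cry2 had the variant at 166 bases. Per3 had no E-box of either form in this window, but 2 D-boxes, 205 and 158 bases before the start. Nr1d1 had the CACGTT variant 28 bases before its start. The receptor half-site AGGTCA, bound by REV-ERB and ROR proteins and by other nuclear receptors, was present in a window of Nr1d2, Per1 and Clock, and none of the 4 motifs was found in the windows of Arntl or Npas2. Of 32851 promoters of the same length, CACGTG was present in 6.02%, CACGTT in 3.85%, TTATGNAA in 3.07% and AGGTCA in 14%. A match is a description of letters, not a site shown to be used.

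Levels are given as CPM, reads relative to library size after TMM scaling of the library sizes. The libraries held from 8412487 reads (female 2) to 9648154 reads (female 1), and 1 read was worth 0.102 to 0.128 CPM. Basal keratinocyte markers (Krt5, Krt14, Itga6 and 6 others) summed to 43000 to 51100 CPM, and 0 of 9 was called in females against males by limma. An unadjusted p below 0.05 was reached by 5 of them (3834 of 15413 over all genes). These 5, Krt15, Itgb4, Itgb1, Col17a1 and Dst, were all lower in females. The median log2 difference of the 9 was -0.39, against -0.01 over all genes. Differences are on a log2 scale of CPM + 0.5, with standard errors and n = 2 libraries per group, and were tested with limma over all 15413 genes. A gene was called at a Benjamini-Hochberg adjusted p below 0.05. In bulk RNA, fewer cells that transcribe a gene and less RNA per cell cannot be told apart.

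Per kilobase of exon, Nr1d1 had the highest level of the 10 genes, with a median of 112 CPM per kb over the 6 libraries (71.2 to 139). It did not overlap the next, Cry2, at 30.2 CPM per kb (16.5 to 41.3). Per1 (27.7 CPM per kb), Per3 (16), Nr1d2 (14.4) and Per2 (13.2) followed, each with a range overlapping that of its neighbours. A gap then separated Per2, whose lowest library was at 8.8 CPM per kb, from Clock, at 5.11 (4.41 to 5.36). Cry1 (2.85 CPM per kb) and Arntl (2.8) lay close together, with overlapping ranges, and Cry1 also overlapped Clock. Npas2 was last, at 0.428 CPM per kb (0.187 to 0.8), below every library of Arntl. The order places the feedback genes above the activators, with Cry1 as the exception.

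In females against males, 3 of the 10 genes fell: the activator Npas2 and the repressors Per1 and Cry2, by 0.90 to 1.37 on the log2 scale. None rose. The background over all genes tested was 6.1% called, with 3.7% called higher and 2.39% called lower. The fitted difference was negative for 9 of the 10 genes, all but Clock, with a median of -0.63 against -0.01 over all genes. In 7 genes both female libraries lay below both male libraries, where 53.7% of all genes had groups that did not overlap. Without female 2, without either castrated library, in a fit of only the 4 male and female libraries, or with no filter on low values, 0 core genes were called, while without female 1 there were 5 and without male 1 there was 1, Per1. With voom weights, 2 remained, Per1 and Cry2.

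**Figure D1:**
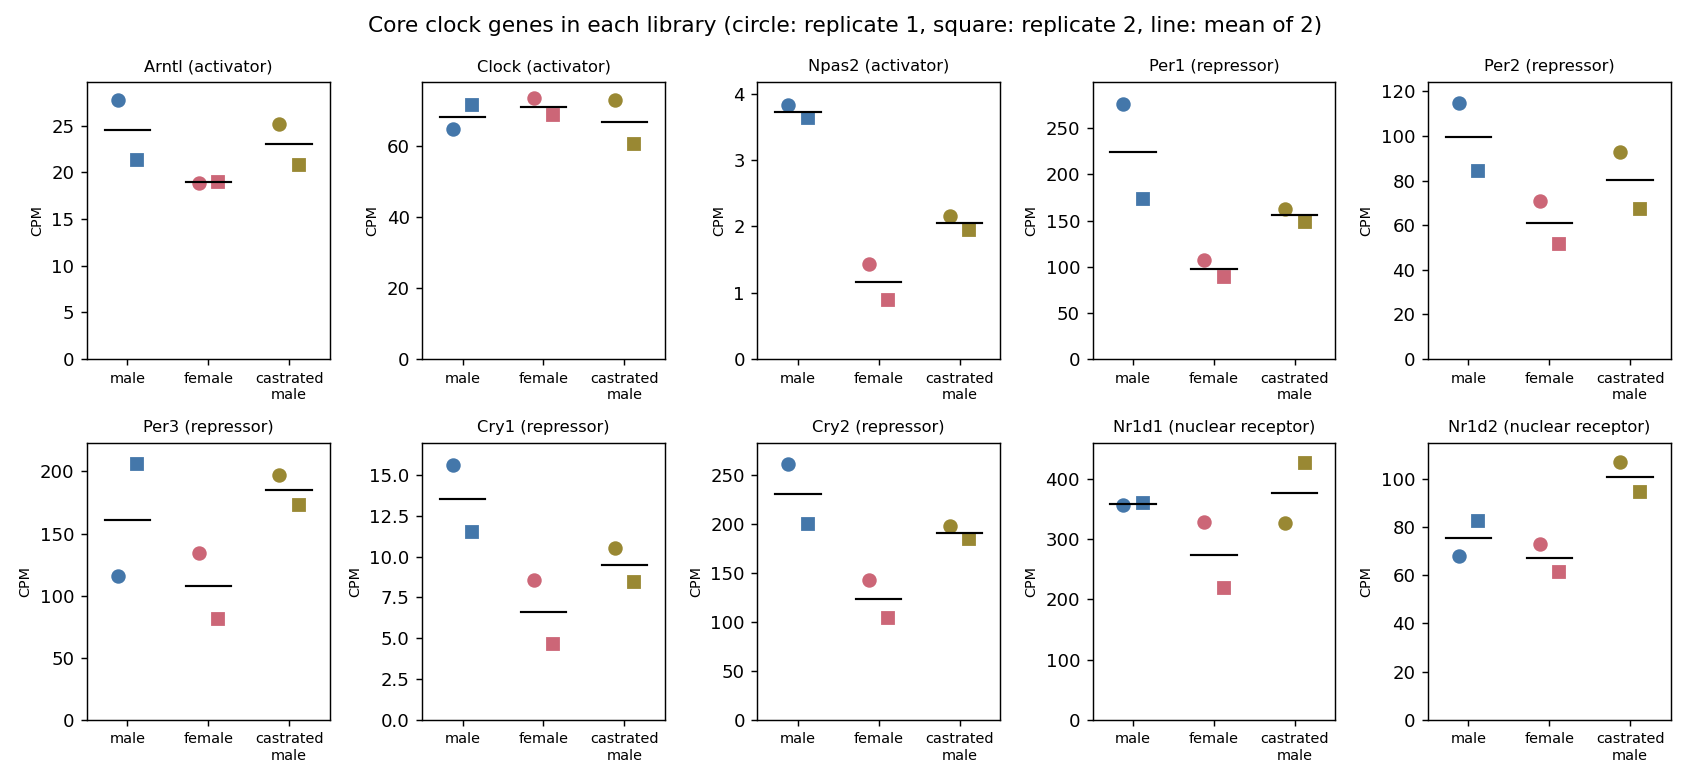
Level of each core clock gene in each library, in CPM on linear axes that start at 0, with circles for replicate 1, squares for replicate 2 and a bar at the group mean. Both female libraries sit lowest for Per1, Cry2, Npas2 and Arntl, castrated male 2 lies just below female 1 for Cry1, and Clock stays between 60.6 and 73.6 CPM throughout.

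The activators did not move as a block. Arntl (chr7:113207465-113314126, GRCm38 here and for the genes that follow), which encodes the partner every activator complex needs, was at 27.8 and 21.3 CPM in males, 18.9 and 19 in females, with 25.2 and 20.8 in castrated males. Both female libraries were below all the others, but the male pools differed by more than the gap between male 2 and the females. Its fitted difference in females against males was -0.35 ± 0.19 (adjusted p = 0.295, limma).

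Clock (chr5:76209868-76304792) was the steadiest of the 10 genes. It read 64.7 and 71.6 CPM in males and 73.6 and 68.7 in females; the castrated pair had 72.9 and 60.6. All 3 groups overlapped, and the difference of females from males was 0.06 ± 0.14, with a 95% interval of -0.26 to 0.39.

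Npas2 (chr1:39193731-39363236), the paralogue that can stand in for CLOCK, was scarce and had the largest called difference of the 10 genes. Males had 3.83 and 3.64 CPM (36 and 31 reads), females 1.43 and 0.897 CPM (14 and 7 reads), and castrated males 2.16 and 1.94 CPM (19 and 17 reads). The 3 groups did not overlap, with males highest and females lowest. Npas2 fell by 1.37 ± 0.32 on the log2 scale in females against males, 2.58-fold lower (adjusted p = 0.0426, limma). With 7 reads in the lowest library, this value has the widest counting error of the 3 called genes. With a pseudocount of 2 CPM the Npas2 difference was -0.86, against -1.15 for Per1 and -0.89 for Cry2, so their order depended on the pseudocount. The Npas2 call was lost with voom weights, with no filter on low values and with only the 4 libraries compared.

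Among the Per genes, Per1 and Per2 were lower in female libraries and Per3 was not ordered by sex. Per1 (chr11:69095217-69109960), an E-box target that glucocorticoids and acute stimuli also induce, was at 276 and 173 CPM in males, 107 and 88.3 in females, with 163 and 148 in castrated males. No groups overlapped, and male 1 stood well above male 2. Per1 fell by 1.16 ± 0.21 on the log2 scale in females, 2.24-fold lower (adjusted p = 0.0208, limma).

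Per2 (chr1:91415982-91459324), encoding the PER protein whose loss most disturbs behavioural rhythms in mice, had 115 and 84.2 CPM in males and 70.7 and 51.5 in females; the castrated pair had 92.9 and 67.5. Both female libraries lay below both male libraries, and the castrated pair overlapped both. The difference of females from males was -0.70 ± 0.22 (adjusted p = 0.0942, limma), short of the threshold. Per3 (chr4:151003652-151044665), a member with a lesser role in keeping rhythm, had 116 and 206 CPM in males, 134 and 80.8 in females, with 197 and 173 in castrated males. Male 1 fell between the female pools, so the sexes overlapped, and the difference was -0.57 ± 0.29 (adjusted p = 0.262, limma).

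Both Cry genes, which encode the strongest repressors of the BMAL1 complexes, were lower in each female library than in each male library. Cry1 (chr10:85131700-85185064) had 15.6 and 11.5 CPM in males and 8.59 and 4.62 in females; the castrated pair had 10.5 and 8.43. Its difference in females against males was -1.03 ± 0.31 (adjusted p = 0.0845, limma), short of the threshold. That lies between the called genes Cry2 (-0.90 ± 0.18) and Per1 (-1.16 ± 0.21), with a larger standard error than either. For Cry2 (chr2:92403646-92434043) the values were 261 and 200 CPM in males, 143 and 104 in females, with 198 and 184 in castrated males. The ranges of Cry2 did not overlap in any pair of groups. Cry2 fell by 0.90 ± 0.18 on the log2 scale in females, 1.87-fold lower (adjusted p = 0.0276, limma).

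In females against males the fitted differences of the REV-ERB genes were the smallest among the 7 feedback genes. Nr1d1 (chr11:98767932-98775333) had 357 and 360 CPM in males and 329 and 219 in females; the castrated pair had 326 and 427. Female 1 was close to the males and female 2 was well below, with a difference of -0.42 ± 0.20 (adjusted p = 0.238, limma). Nr1d1 shares 263 bases of exon, 8.55% of its exon length, with Thra on the opposite strand, and the sources used here do not give the strand setting of the counting, so reads from this stretch are uncertain. Cry2 shares 295 bases (4.67%) with D930015M05Rik in the same way, and Arntl 33 bases (0.439%) with Gm45355. Nr1d2 (chr14:18204054-18239127) had 68.1 and 82.4 CPM in males, 73.1 and 61.3 in females, with 107 and 94.5 in castrated males. The sexes overlapped and the difference was -0.16 ± 0.15 (adjusted p = 0.558, limma), whereas both castrated libraries were the highest of the 6.

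**Figure D2:**
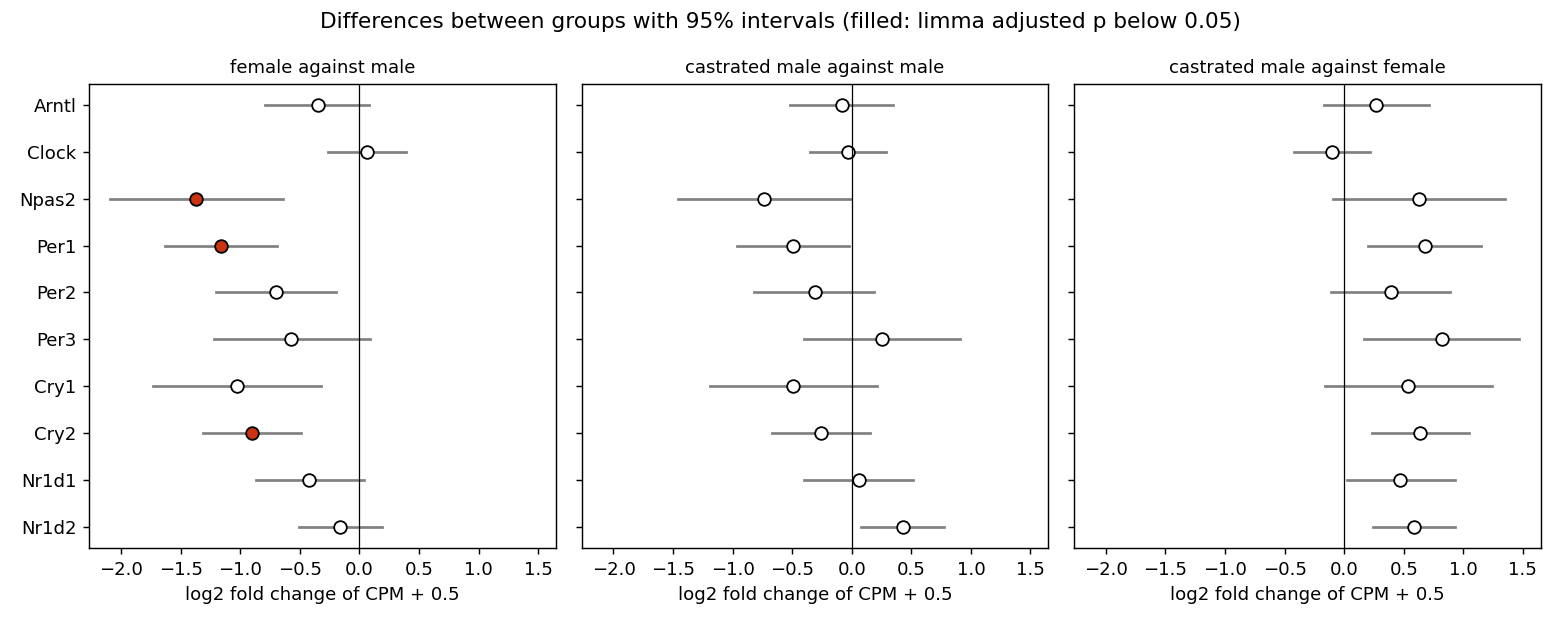
Fitted log2 fold change of CPM + 0.5 for each gene in the 3 comparisons, with 95% intervals from limma; filled points are called at an adjusted p below 0.05. In females against males Npas2, Per1 and Cry2 are called and 9 of 10 points lie left of 0, and no point is filled in either comparison of castrated males.

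No gene was called in castrated against intact males, where 0.0389% of all genes were (6 of 15413, 0.013% higher and 0.026% lower). Limma gave an unadjusted p below 0.05 for 3 of the 10 genes (914 of 15413 over all genes) and voom called 0 of the 10. Npas2 (-0.74 ± 0.32, unadjusted p = 0.0468) and Per1 (-0.49 ± 0.21, unadjusted p = 0.0435) had negative differences, and Nr1d2 a positive one (0.43 ± 0.15, unadjusted p = 0.0219). The adjusted p-values of these genes in limma were 0.837, 0.824 and 0.764. The 2 groups did not overlap in 5 genes: castrated males were lower for Npas2, Per1, Cry1 and Cry2 and higher for Nr1d2, where 35.5% of all genes did not overlap. The median difference was -0.17, against 0 over all genes. Intervals were wide: for Cry1 the difference was -0.49, with a 95% interval of -1.19 to 0.21, and for Per3 0.25, from -0.4 to 0.91.

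In castrated males against females, again no core gene was called by limma, where 1.73% of all genes were (0.571% higher and 1.15% lower). Voom called 0 of the 10 genes. Unadjusted p-values in limma were below 0.05 for 5 of the 10 genes (3332 of 15413 over all genes). These were Nr1d2 (0.59 ± 0.15, unadjusted p = 0.00421), Cry2 (0.64 ± 0.18, 0.00643), Per1 (0.68 ± 0.21, 0.0102), Per3 (0.82 ± 0.29, 0.0195) and Nr1d1 (0.47 ± 0.20, 0.0434), all with higher means in castrated males. Both castrated libraries exceeded both female libraries in 6 genes (Arntl, Npas2, Per1, Per3, Cry2 and Nr1d2), where 57.7% of all genes did not overlap. The median difference was 0.56, against 0.01 over all genes. One core gene, Per1, was called when only the 4 libraries compared were fitted, and also without male 1 and without male 2. Without female 1 the 3 called genes were Cry2, Nr1d1 and Nr1d2.

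Levels in castrated males lay between the male and female means in 6 genes (Arntl, Npas2, Per1, Per2, Cry1 and Cry2). For Per1 the means were 225 ± 72.5 CPM in males, 156 ± 10.5 in castrated males and 97.8 ± 13.4 in females (SD, n = 2). Per3, Nr1d1 and Nr1d2 had castrated means above both, led by Nr1d2 at 101 ± 9.1 CPM against 75.2 ± 10.1 in males and 67.2 ± 8.36 in females. Clock alone had a castrated mean below both. The same castrated libraries enter both comparisons, so the positions are not independent. The share of all genes in each position was not computed, so these counts describe the 10 genes only.

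Set side by side within each library, the averages of activators and repressors did not move in opposite directions between females and males. The deviation of each gene from its own mean over the 6 libraries was averaged over the 3 activators and over the 5 Per and Nr1d genes. In males the activators stood at 0.33 and 0.23 and the repressors at 0.21 and 0.20 (log2). Females had -0.18 and -0.37 for the activators and -0.17 and -0.63 for the repressors. Both averages were above 0 in males and below 0 in females, although only Npas2 of the 3 activators and Per1 of the 5 repressors were called. The activator average rested mainly on Npas2, which deviated by 0.73 and 0.67 in males and by -0.43 and -0.90 in females. Arntl deviated by 0.33 and -0.04 in males and by -0.21 and -0.20 in females, and Clock by at most 0.10 in any of these 4 libraries.

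Castrated males had 0.11 and -0.12 for the activators against 0.25 and 0.13 for the repressors. Castrated male 2 was the exception among 6 libraries, with its activators below and its repressors above the mean. The 5 others had both on one side. Subtracting the repressors from the activators gave 0.12 and 0.02 in males and -0.01 and 0.26 in females; the castrated pair had -0.14 and -0.25. Values for male and female pools therefore overlapped, and both castrated pools lay below them. With all 7 repressors the female 2 difference became 0.32 and that of male 1 became 0.

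Arntl against Nr1d1, a pair that runs nearly opposite over a day in most tissues, was compared on its own. The log2 level of Arntl minus that of Nr1d1 was -3.66 and -4.05 in males, -4.09 and -3.5 in females, with -3.66 and -4.32 in castrated males. These values differed more between the pools of a group than between the groups. Against Per2 the difference was -2.03 and -1.96 in males and -1.87 and -1.42 in females; the castrated pair had -1.86 and -1.67, so that Arntl was lowest relative to Per2 in males. No phase was fitted, since 2 pools with no hour cannot give one.

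**Figure D3:**
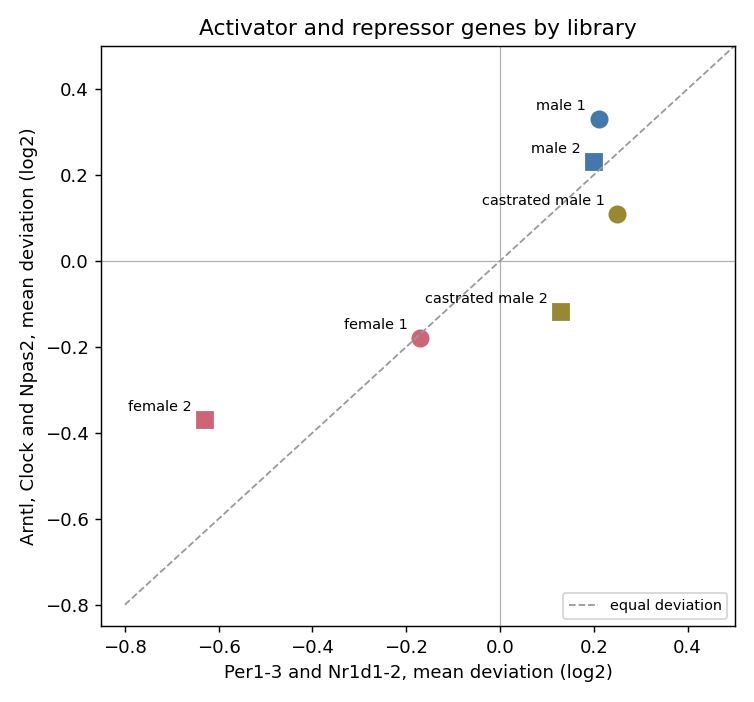
Mean deviation (log2) of the 3 activators on the vertical axis against that of the 5 Per and Nr1d genes on the horizontal axis, 1 point per library. Female 2 (-0.63, -0.37) is at the lower left, above the dashed line of equal deviation by 0.26. The males are at the upper right, with male 1 above the line by 0.12, and male 2 and female 1 lie close to it. Both castrated males lie below the line, and castrated male 2 is the point with opposite signs.

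Pools of 1 group differed in the clock genes by more than counting error. In males, replicate 1 exceeded replicate 2 for Per1 by a ratio of 1.59 (95% exact binomial interval 1.49 to 1.7, counting error only), and also for Per2, Cry1, Cry2 and Arntl (1.3 to 1.37). Per3 went the other way, with a ratio of 0.563 (0.522 to 0.608), as did Nr1d2 at 0.826 (0.741 to 0.921). Among output genes, Dbp (0.583, 0.472 to 0.718) and Tef (0.756, 0.715 to 0.799) were also lower in replicate 1. Usp2 (1.31, 1.16 to 1.49), Bhlhe41 (1.21, 1.1 to 1.33), Rora (1.12, 1.07 to 1.17) and Bhlhe40 (1.09, 1.02 to 1.16) were higher. Nr1d1 did not differ between the male pools beyond counting error, at 0.992 (0.944 to 1.04). The 2 male pools thus differed in the mix of clock genes, not only in their overall level.

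In females, replicate 1 exceeded replicate 2 for 7 of the 10 genes, for none was it lower, and 3 had intervals that included 1. Female 2 was the lowest library for 8 genes, all but Arntl and Clock. In castrated males, 6 genes were higher and 1, Nr1d1, lower in replicate 1. No share over all genes was computed for these counts. Female 2 also had the smallest TMM factor (0.927) and held the highest summed level of several other lists given below.

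**Figure D4:**
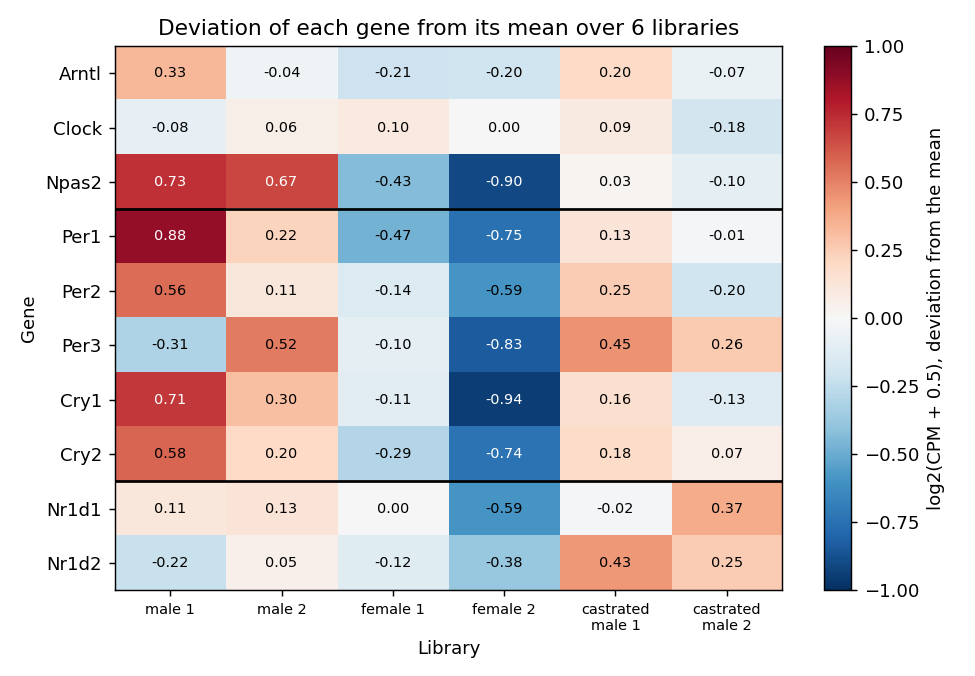
Deviation (log2) of each gene from its mean over the 6 libraries, with 1 column per library and the value printed in each cell; lines separate activators, Per and Cry genes, and Nr1d genes. Female 2 is the lowest column for 8 genes, and male 1 and male 2 differ in sign or size for Per3 and Per1.

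Several output factors and loop regulators of the clock were lower in females as well. Of 11 such genes 9 were tested, of which 5 fell and none rose, with a median of -0.68. Over all genes tested, 2.39% were called lower and 3.7% higher, with a median of -0.01. Ciart, a repressor of the BMAL1 complex, fell by 1.21 ± 0.22 on the log2 scale (adjusted p = 0.0214, limma), and Bhlhe41, a repressor that competes at E-boxes, by 1.23 ± 0.27 (adjusted p = 0.037, limma). Usp2, a deubiquitinase with daily rhythm in many tissues, fell by 1.30 ± 0.20 (adjusted p = 0.0119, limma). Wee1, a kinase that holds back mitosis and is under clock control, fell by 0.85 ± 0.15 (adjusted p = 0.0202, limma). Hlf, a PAR bZIP factor, fell by 0.67 ± 0.13 (adjusted p = 0.0277, limma).

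The remaining output genes did not pass. Dbp, the PAR bZIP factor used most often as a clock readout, was at 16.1 and 27.6 CPM in males, 27.5 and 24.4 in females, with 29.6 and 34.5 in castrated males. It was the only tested gene of that list with a positive difference, 0.29 ± 0.24 (adjusted p = 0.505, limma), and the sexes overlapped. Tef had -0.68 ± 0.19, Rora -0.62 ± 0.17 and Bhlhe40 -0.44 ± 0.13, with adjusted p-values of 0.0739, 0.0674 and 0.0843. Nfil3 (0.455 to 1.12 CPM) and Rorb were below the filter. In castrated males against females Ciart rose by 1.17 ± 0.22 (adjusted p = 0.0415, limma), the single call among the clock lists, from 60.9 and 36.4 CPM in females to 97.5 and 116. That call was lost without female 2, without either castrated library, with voom and with no filter, while without female 1 there were 9 calls in the clock lists (7 higher and 2 lower).

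Of the 18 enzymes that modify or degrade clock proteins, Btrc, a ubiquitin ligase subunit that targets PER proteins, fell by 0.92 ± 0.18 (adjusted p = 0.0276, limma), from 42.4 and 38.9 CPM in males to 25 and 18.1 in females. None rose, and the median was 0.02. A single call among 18 is close to the background of 6.1%, so it is a result for Btrc and not for the list. Of 11 tested cofactors of clock repression and activation, 0 was called by limma, with a median of 0.09. An unadjusted p below 0.05 was reached by 3 of the 11, and by 3834 of 15413 over all genes. Across these 38 tested clock genes outside the core, 6 were called in females against males. That count was 0 without female 2, 1 without either castrated library, 2 without either male library and 12 without female 1 (9 lower and 3 higher), and it was 0 with no filter and 1 with only the 4 libraries compared. In castrated against intact males limma and voom called 0 of the 38. There, 3 output genes and 2 enzymes had an unadjusted p below 0.05 in limma (914 of 15413 over all genes).

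Genes of 2 other inputs to the Per genes were measured beside them. Over all genes tested, 2.39% were called lower in females and 3.7% higher. Of 8 glucocorticoid receptor and target genes, 2 were called lower in females and none higher. They were Nr3c1, the receptor, with a difference of -0.84 ± 0.14 (adjusted p = 0.018, limma), and its target Tsc22d3, with -1.49 ± 0.30 (adjusted p = 0.0288, limma). The list did not move as 1: differences were negative for 5 genes and positive for 3, Sgk1 (0.36 ± 0.26), Dusp1 (0.23 ± 0.31) and Errfi1 (0.12 ± 0.21). Of 8 immediate early genes, 5 were higher, among them Fos by 0.89 ± 0.21 (adjusted p = 0.0462, limma) and Egr1 by 1.18 ± 0.25 (adjusted p = 0.0301, limma). Fos was not called with voom, with library totals or with a pseudocount of 0.1 CPM. Without female 2 or without castrated male 1, 0 genes of either list were called; without castrated male 2 the counts were 0 and 1, without male 2 they were 1 and 0, and without female 1 they were 4 and 3. Leaving out male 1 changed which genes of both lists were called: Tsc22d3 was lost and Sgk1 appeared, higher in females. With no filter neither list had a call, and with only the 4 libraries compared the counts were 0 and 1. The part of these genes in the Per1 result was not tested.

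Some markers of other states and cell types also differed between females and males. Over all genes tested, 3.7% were called higher in females and 2.39% lower. A single call in a short list is a result for that gene and not for the list. Of 10 mitosis genes, limma called 9 higher in females, with summed levels of 322 to 409 CPM in males, 858 to 1210 in females and 478 to 657 in castrated males. Of 6 Langerhans cell markers 3 were higher (Cd74, H2-Aa and H2-Ab1), with summed levels of 403 to 453, 1120 to 2390 and 430 to 501 CPM, while the defining marker Cd207 was at 5.01 to 8.46 CPM in every library. Of 6 hair follicle bulge markers 1, Postn, was higher, at 593 and 432 CPM in males, 1280 and 1870 in females, with 589 and 585 in castrated males. The 5 other bulge markers summed to 80.5 to 115 CPM in males, 71 to 97.9 in females and 83.7 to 94.3 in castrated males. Of 8 suprabasal markers 3 were higher (Krt1, Krtdap and Flg) and 1, Dsg1a, lower, with sums of 1690 to 1970 CPM in males, 1900 to 2110 in females and 2160 to 2350 in castrated males. Cd34, the marker gated out, was at 1.49 to 3.05 CPM. Of 4 other leukocyte markers 1, Cxcr2, was higher (2.38 ± 0.52, adjusted p = 0.0359, limma). It was at 0.959 and 0.705 CPM in males and 3.37 and 11.8 in females. Ptprc had a difference of -0.04 ± 0.37 and was not called, and Itgam and Lyz2 were below the filter. With Cxcr2 included, the list summed to 4.26 to 5.52 CPM in males, 6.75 to 16.8 in females and 6.71 to 7.4 in castrated males. Among 5 melanocyte markers 1, Mitf, was lower (-1.69 ± 0.33, adjusted p = 0.0269, limma). It was at 15.1 and 17.6 CPM in males and 6.85 and 3.21 in females. Pmel (-0.23 ± 0.24), Dct (-0.39 ± 0.37) and Tyr (0.32 ± 0.4) were not called, and Mlana was below the filter. With Mitf included, the sums were 44.5 to 52.3 CPM in males, 30.2 to 33.7 in females and 43.6 to 64.6 in castrated males. Fibroblast markers summed to at most 26.9 CPM, with Col3a1 listed at 0 in 5 libraries, and Merkel cell markers to at most 0.852 CPM. The part of these cell types and states in the clock result was not tested.

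The genes whose pattern over the 6 libraries was most like that of Arntl, by Pearson correlation of log2(CPM + 0.5) among 11432 genes whose mean reached 5 CPM, were Eml5 (0.995), 1810043G02Rik (0.9911), Mtg1 (0.9835), Zfp646 (0.9831) and Tmem67 (0.9793). For Nr1d1 they were Zfp74 (0.9816), Dip2c (0.9809), Arnt (0.9792), Gnpda1 (0.9756) and 2810002D19Rik (0.9745). With 6 libraries a value above 0.95 was reached by 32 genes for Arntl and 25 for Nr1d1. These points share groups and scaling, so the values describe the order of the libraries only.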

How the data were processed

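RNA sequencing of 6 libraries was read from 1 deposited table. Per the submitters' processing notes, the tools named include STAR 2.7.5a and HTSeq 0.11.1, and the builds named are GRCm38 and mm10. As deposited, each value is a score: the authors' read counts scaled in every library to a near-equal total (19999024 to 19999732) and rounded, which the values show. The sources used here name no annotation, strand setting or scaling step. Each column held rounded multiples of 1 step (2.073 to 2.377), and dividing by it gave whole reads for 100% of values within 0.5. The second male library is numbered 3 in its library name, and its title was used.

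CPM used TMM factors. Genes at 1.16 CPM (10 reads at the median depth) in at least 2 libraries and 15 reads in all were tested, with limma 3.58.1 (R 4.3.3) on log2(CPM + 0.5), 1 mean per group, an intensity trend and all 6 libraries fitted together (3 residual degrees of freedom). All p-values are two-sided. Exon lengths came from the GENCODE annotation of GRCm38, which matched 99.3% of the table's genes. The procedure was tested on simulated data in which all changed genes were more abundant than Npas2. No call reported here rests on that test. The rule named all 10 core genes, every called gene of the clock lists, 8 output factors, the 5 genes most like Arntl and Nr1d1, and Nr3c1, Tsc22d3, Fos and Egr1. 1 gene of the output list is not reported here and is left out of that list's counts. Genes named in marker lists were chosen after their values were seen. The members and lists were chosen with earlier results of these data known. Alternatives were other pseudocounts, filters and scalings, voom, a replicate block, fewer libraries and a length correction.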

Additional observations from a re-analysis of the deposited data

How the results depend on the processing

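Of 450 gene values over 15 alternatives, 413 kept direction and side of the threshold, 20 lost a call, 9 gained one and 8 reversed. In females against males the core count of 3 became 0 with no filter and 0 with only 4 libraries, and ran from 0 to 5 with 1 library left out. The other clock lists went from 6 to 0 with no filter and 1 with 4 libraries, and from 0 to 12 with 1 left out. In castrated males against females the core count of 0 became 1 with 4 libraries and ran from 0 to 3 with 1 left out, and the single list call became 0 with no filter, 0 with voom and 0 with the replicate block (0 to 9 with 1 left out). The cause was not tested, beyond the fewer libraries of some fits. Over all genes, the females against males count of 940 became 103 with no filter and 265 with 4 libraries, and ran from 49 to 1773 with 1 left out.

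All 8 reversals came from leaving out 1 library. The ranges were 0 to 0.11 for Clock in females against males, -0.28 to 0.11 for Arntl, -0.15 to 0.1 for Clock, -0.15 to 0.66 for Per3 and -0.14 to 0.26 for Nr1d1 in castrated against intact males, and -0.2 to 0.03 for Clock in castrated males against females. The activator minus repressor difference of male 1 moved from 0.12 to 0.03 with a pseudocount of 2 CPM and to 0 with all 7 repressors, and that of male 2 from 0.02 to -0.05 with a pseudocount of 2 CPM.

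Replicate numbers shared between groups did not pair the libraries: replicate differences correlated at -0.153, -0.01 and 0.194 over genes. With the replicate block, 3 core genes were called in females against males, Per1, Per2 (adjusted p = 0.0236, limma) and Cry2, while Npas2 was not (0.0551), and the immediate early count went from 5 to 3 (Junb, Ier2 and Zfp36, without Fos and Egr1). The Spearman correlation of the females against males difference with exon length was -0.132 over 15362 genes, and the same 3 core genes were called with that trend removed, an alternative chosen after seeing the data.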
